A study of Macaca mulatta with 4 samples.

Results

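Solute carriers are membrane proteins that move nutrients, ions and metabolites across the plasma membrane and the membranes of organelles. The genes studied were the SLC-numbered carriers with reads in morulae of the rhesus macaque (Macaca mulatta); a morula is a compacting ball of cells that precedes the blastocyst. They were chosen by symbol (SLC, digits, 1 capital letter, digits; SLC22A2 left out) and selected on read counts, with at least 15 counts summed over the 4 libraries. Of 327 such symbols in a table of 21314 genes, 243 met this rule and 84 did not, 32 of which had no read at all. Just inside the threshold lay SLC12A1 and SLC9A2 with 15 counts each and SLC25A41 with 16. Just outside lay SLC2A6 and SLC14A2 with 13 counts each and SLC27A3 with 12.

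By its title, the study concerns imprinting, the silencing of a gene by its parent of origin, in primate embryos before implantation. GG embryos are gynogenetic, with nuclear chromosomes of maternal origin only, and AG embryos are androgenetic, with nuclear chromosomes of paternal origin only. There were 2 GG and 2 AG morula libraries, made from cDNA amplified with a kit for very low RNA input, and the labels record no treatment, age, donor animal or exact embryo number for either group. No biparental embryo is among these 4 libraries. Separate animals are not stated for the replicates; the p-values therefore reflect the spread among these 4 samples, which may be technical.

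How a carrier works depends on its family. Amino acid carriers of the SLC7 family include light chains, which pair with a heavy chain of the SLC3 family, and a separate cationic group. Facilitative glucose carriers (SLC2) let sugar run down its gradient, and monocarboxylate carriers (SLC16) move lactate and pyruvate with protons. Most of the SLC25 family spans the inner mitochondrial membrane. In mouse embryos, pyruvate and lactate are the main fuels of early cleavage, and glucose uptake grows towards the blastocyst.

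Totals were 21335844 and 29733897 counts in GG replicates 1 and 2 and 14129529 and 19108657 in AG replicates 1 and 2. Across tested genes the Spearman correlation was 0.968 between the GG libraries and 0.931 between the AG libraries, and 0.803 to 0.858 between groups; this is across genes, which are not independent. The pluripotency gene POU5F1, expressed at this stage, had 465 and 479 CPM in GG and 181 and 389 CPM in AG. Of 11 genes listed under morula identity, 9 were tested, among them the genome activation genes ZSCAN4 and LEUTX. Of the 9, 1 (11.1%), DPPA2, was called higher in GG, against 6.34% of all tested genes. Called higher in AG were 4 (44.4%, against 6.58%): KLF17, DPPA4, ZSCAN4 and LEUTX. These AG calls are thus not a measure of morula identity alone. LEUTX had 0.0475 and 0.0682 CPM in GG and 112.5 and 4.42 CPM in AG. The list summed to 1153 and 1519 CPM in GG and 2072 and 1651 CPM in AG. Most of the AG sum was ZSCAN4, with 3.23 and 1.33 CPM in GG and 1325 and 1024 CPM in AG; without it the list summed to 1150 and 1518 CPM in GG and 747 and 627 CPM in AG. Of 16 trophectoderm markers, 13 were tested and 7 called, all 7 higher in GG (53.8%, against 6.34% of all tested genes), while DESeq2 also called DAB2 and TFAP2C higher in AG; the list had summed levels of 620 and 1096 CPM in GG and 296 and 326 CPM in AG. Of 12 primitive endoderm markers, 9 were tested and 4 called, all 4 higher in GG (44.4%, against 6.34% of all tested genes). The list summed to 581 and 646 CPM in GG and 139 and 204 CPM in AG. Without APOE the endoderm sums overlapped, at 199 and 195 CPM in GG and 138 and 201 CPM in AG. Of 8 blood cell markers, 5 were tested, and PTPRC was among those called, higher in AG; the list summed to 13.1 and 15.1 CPM in GG and 146 and 68.5 CPM in AG, where most of it was PTPRC (without it 6.65 and 11.7 CPM in GG, 4.92 and 2.64 CPM in AG), with CD3E at 0 in 3 of the 4 libraries. Sperm markers summed to 0 CPM in both GG libraries and to 0.499 and 0.0508 CPM in AG, with 4 of 6 matched markers at 0 throughout. Of 10 cumulus and granulosa markers, 2 were tested and 0 called (edgeR; 0 at an unadjusted p under 0.05 and 0 with DESeq2), with FSHR at 0 in all 4 libraries. The tested pair were CYP11A1 (13.1 and 29.3 CPM in GG, 3.21 and 15.9 CPM in AG) and TNFAIP6 (1.61 and 10.54 CPM in GG, 2.56 and 0.102 CPM in AG), both overlapping between groups. The part of these marker differences in any carrier's difference was not tested, and in bulk RNA fewer cells of a type and less RNA per cell cannot be told apart.

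Calls among the carriers went in both directions. Of 243 members, 220 passed the filter on low counts, and 37 (16.8%) were called, against 12.9% of all 13227 genes tested; the difference between these shares was not tested. By direction, 15 members (6.82%) were higher in GG, against 6.34% of all genes, and 22 (10%) were higher in AG, against 6.58%. The median log2 fold change was -0.02 over the 220 members and 0.04 over all tested genes, and 110 members lay on each side of 0. Groups did not overlap in 143 of the 220 (65%), against 64.1% of all tested genes. In 14 of the 37 calls, the lower group averaged under 1 CPM, as in 508 of the 1709 calls over all tested genes. A member can pass the read threshold and the filter through its higher group alone. The member counts therefore describe the members that passed and support nothing further. Without GG replicate 1 or GG replicate 2, SLC28A3 was the only member called; in those fits only the AG pair gave the spread, and the lone GG library was taken to vary like it. Without AG replicate 2 the count was 82.

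Members took similar shares of each library, at 0.962% and 1.003% of all reads in GG and 0.914% and 1.23% in AG. Within that share, the classes were weighted differently. Mitochondrial carriers summed to 4642 and 5028 CPM in GG and 3036 and 3529 CPM in AG, and without SLC25A43, the member with most reads, to 2269 and 2541 CPM in GG and 1954 and 2652 CPM in AG. Glucose and sugar carriers summed to 1327 and 1446 CPM in GG and 2103 and 3636 CPM in AG. Amino acid carriers summed to 527 and 430 CPM in GG and 777 and 967 CPM in AG. For the last 2 classes both GG libraries lay below both AG libraries. For mitochondrial carriers GG lay above AG with SLC25A43 counted, and the groups overlapped without it. No test was made of these sums, since 2 libraries against 2 cannot give an exact two-sided p below 0.333.

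**Figure D1:**
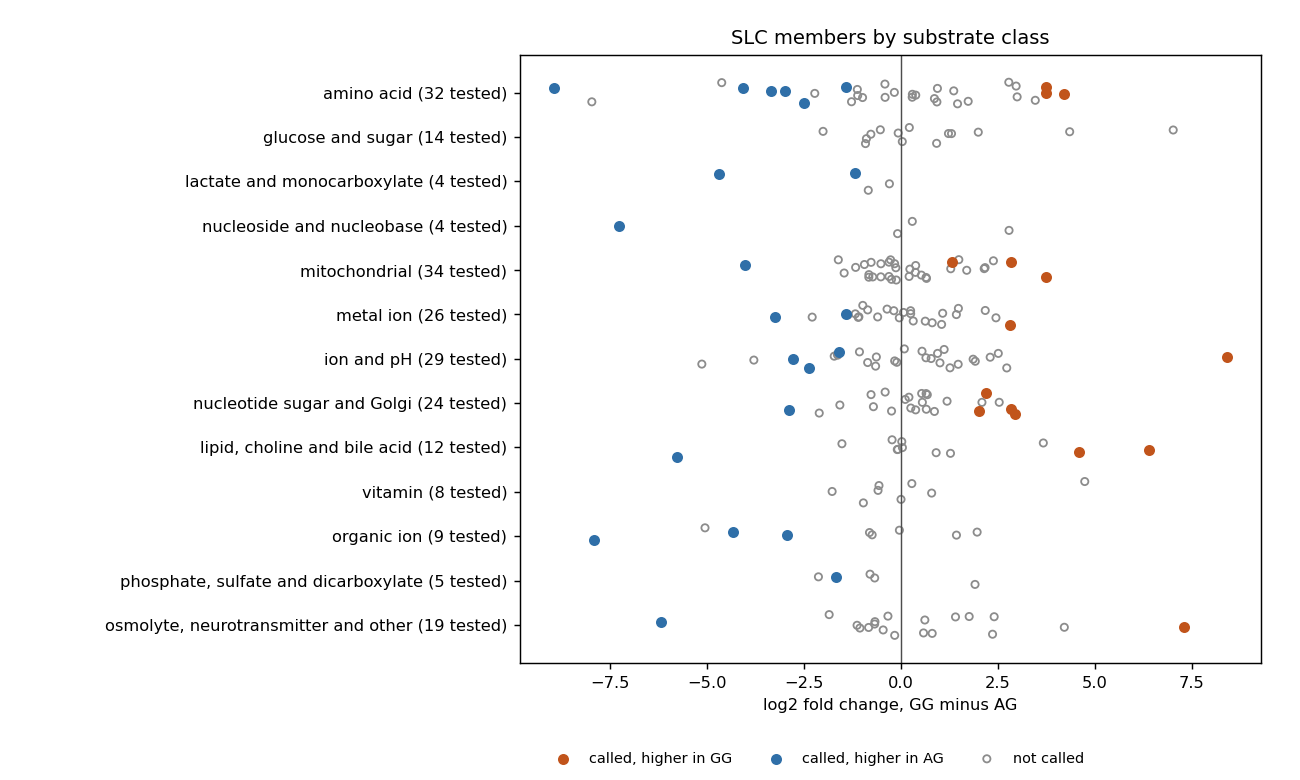
Log2 fold change (GG minus AG) of each of the 220 tested carriers, in rows by substrate class; filled points were called at an adjusted p under 0.05, open points were not, and vertical placement within a row is random. Calls lie on both sides of 0 in most classes, with 6 amino acid carriers on the AG side against 3 on the GG side, while the lactate (2), nucleoside (1), organic ion (3) and phosphate (1) classes have calls on the AG side only.

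Amino acid carriers held the most calls of any class. Of 37 members, 32 were tested, 3 were higher in GG and 6 in AG, leaving 23 without a call; the share called was 28.1%, against 12.9% of all tested genes, and the median log2 fold change was 0.06. The 3 higher in GG were proton-coupled or cationic carriers (SLC36A1, SLC36A2 and SLC7A3). The 6 higher in AG were glutamine carriers (SLC1A5, SLC38A1, SLC38A8), a pair of SLC7 exchangers (SLC7A6, SLC7A7) and the lysosomal carrier SLC38A9.

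SLC1A5 (ENSMMUG00000022163), a sodium-coupled exchanger of glutamine and other neutral amino acids, had 6.13 and 6.07 CPM in GG and 38.5 and 58.8 CPM in AG. The GG libraries were nearly equal and both lay far below AG. The log2 fold change was -3.00 ± 0.39 (SE; edgeR adjusted p = 0.0162). SLC38A1 (ENSMMUG00000011999), another sodium-coupled glutamine carrier, had 1 count over both GG libraries and 4.84 and 21.1 CPM in AG, so its reads relative to library totals were 723 times higher in AG (95% interval 129 to 28617). SLC38A8, also a glutamine carrier, had 2.85 and 1.67 CPM in GG and 28.9 and 16.9 CPM in AG (log2 fold change -3.34 ± 0.54, adjusted p = 0.0244). All 3, chosen by their calls, had lower levels in both GG libraries than in either AG library. Groups did not overlap, in either direction, in 64.1% of all tested genes.

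SLC38A9 (ENSMMUG00000010466) sits in the lysosomal membrane and reports arginine to the growth kinase complex mTORC1. It had 108 and 75.0 CPM in GG and 245 and 245 CPM in AG. The AG libraries were equal to 3 digits, and GG was lower by a log2 fold change of -1.42 ± 0.28 (edgeR adjusted p = 0.0355). SLC38A6, a relative whose substrate is not well settled, had 53.7 and 36.5 CPM in GG and 43.8 and 57.3 CPM in AG. Its groups overlapped and it was not called. Over the SLC38 family, 3 of 7 tested were called, all 3 higher in AG (42.9%, against 6.58% of all tested genes). SLC38A10 was higher in both GG libraries (6.41 and 11.9 CPM in GG, 2.71 and 2.79 CPM in AG), not called with edgeR (adjusted p = 0.0943) and called with DESeq2 (0.0335).

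Of the heteromeric exchangers, 2 of 5 tested light chains were called, both higher in AG (40%, against 6.58% of all tested genes). Neither of the 2 heavy chains was called. SLC3A2, the heavy chain that carries several SLC7 light chains to the plasma membrane, had 188 and 129 CPM in GG and 240 and 389 CPM in AG; both GG libraries were lower, but the call was not made (log2 fold change -0.99 ± 0.34, edgeR adjusted p = 0.114). DESeq2 (0.0493) and the fit without AG replicate 1 (0.0324) called it. SLC7A7, a light chain that exchanges cationic for neutral amino acids, had 1.90 and 1.77 CPM in GG and 49.7 and 12.0 CPM in AG (log2 fold change -4.06 ± 0.78, adjusted p = 0.0327). SLC7A6, its close relative, had 5.08 and 3.61 CPM in GG and 20.4 and 28.6 CPM in AG (log2 fold change -2.50 ± 0.44, adjusted p = 0.0280). These 2 light chains were low in both GG libraries, while the AG libraries differed from each other up to 4.14-fold for SLC7A7.

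The second heavy chain, SLC3A1, and its partner SLC7A9, which together take up cystine and cationic amino acids in kidney and gut, were both highest in AG replicate 1. SLC3A1 had 1.24 and 0.102 CPM in GG and 25.6 and 6.50 CPM in AG, and SLC7A9 had 1 count over GG and 12.1 and 0.609 CPM in AG. Neither was called (adjusted p = 0.0683 for SLC3A1 and 0.0533 for SLC7A9), and both were called with DESeq2, with no filter and without AG replicate 2. SLC7A11, the cystine and glutamate exchanger, had 1.52 and 4.23 CPM in GG and 0 and 2.18 CPM in AG. It was low, overlapped between groups and was called only without AG replicate 2. SLC7A8, a light chain for neutral amino acids (1.95 and 0.546 CPM in GG, 3.13 and 2.24 CPM in AG) was not called.

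The carriers higher in GG were fewer. SLC7A3 (ENSMMUG00000003274), a carrier of arginine and lysine, had 22.1 and 64.8 CPM in GG and 1.71 and 4.72 CPM in AG (log2 fold change 3.74 ± 0.77, edgeR adjusted p = 0.0371). SLC7A2, of the same cationic group, had 9.78 and 6.96 CPM in GG and 21.9 and 56.0 CPM in AG, on the opposite side and not called (adjusted p = 0.0539; called in 5 alternatives). SLC36A2, a proton-coupled carrier of glycine and proline, had 49.8 and 18.5 CPM in GG and 2.99 and 2.13 CPM in AG (log2 fold change 3.74 ± 0.62, adjusted p = 0.0261). Its lysosomal relative SLC36A1 had 5.37 and 5.39 CPM in GG and 0.499 and 0.102 CPM in AG (log2 fold change 4.20 ± 0.90, adjusted p = 0.0403). SLC36A4 had 5.37 and 9.34 CPM in GG and 0 and 1.27 CPM in AG; it was not called with edgeR (adjusted p = 0.148), but was with DESeq2 (0.0243) and without AG replicate 2. All 3 tested SLC36 members were higher in both GG libraries than in either AG library. Groups did not overlap, in either direction, in 64.1% of all tested genes.

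**Figure D2:**
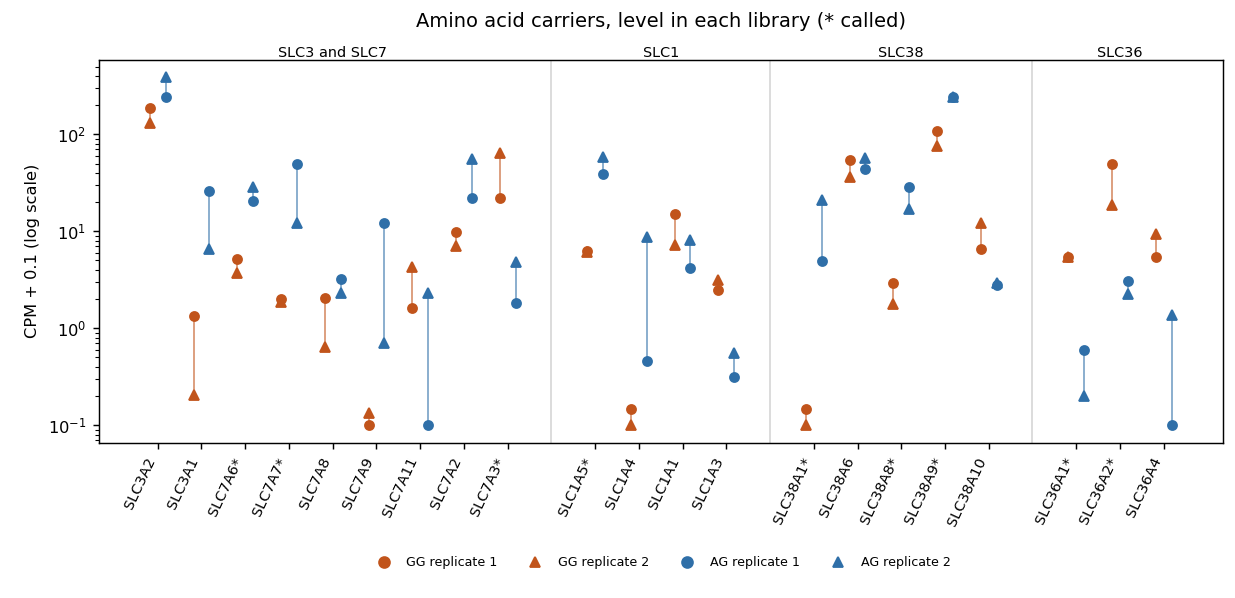
Level of amino acid carriers in each library, as CPM + 0.1 on a log axis; GG libraries are drawn left of AG libraries, circles are replicate 1, triangles replicate 2, and an asterisk marks called members. SLC1A5, SLC7A6, SLC7A7, SLC38A1 and SLC38A8 sit lower in both GG libraries, and SLC7A3, SLC36A1 and SLC36A2 sit higher.

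A few amino acid carriers had reads mainly in 1 AG library and did not pass the filter. SLC1A4, a neutral amino acid exchanger, had 1 and 0 counts in GG and 5 and 170 in AG. SLC7A1, a cationic carrier, had 0 and 0 counts in GG and 0 and 46 in AG, and SLC38A2, a sodium-coupled neutral carrier, 0 and 0 in GG and 0 and 17 in AG. SLC6A15 was the reverse within AG, with 1 and 0 counts in GG and 55 and 8 in AG. AG replicate 2 also had the highest levels of the amino acid synthesis genes PSAT1 (14.1 and 10.9 CPM in GG, 22.1 and 608 CPM in AG) and ASNS (13.6 and 22.7 CPM in GG, 25.2 and 228 CPM in AG). Whether these share a source with the carriers was not tested.

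Among tested genes that sense amino acids 16.7% were called, and among those that respond to them 18.2%, against 12.9% of all tested genes. Of 24 sensing genes, 18 were tested: 2 were called on the GG side, 1 on the AG side, and 15 had no call, with a median log2 fold change of 0.03. RRAGD, a Rag GTPase at the lysosome, had 834 and 994 counts in GG and 0 in both AG libraries, and LAMTOR2, of its lysosomal anchor, had 229 and 196 CPM in GG and 51.3 and 65.3 CPM in AG. SESN2, a leucine sensor, had 9.02 and 12.8 CPM in GG and 73.7 and 115 CPM in AG. Of 14 amino acid response genes, 11 were tested, and 2 were called, both higher in AG, DDIT3 and ATF3. The list leaned to AG, with 10 of the 11 log2 fold changes negative and a median of -3.40. With edgeR 7 had an unadjusted p under 0.05, and DESeq2 called 6, 1 of them higher in GG.

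Glucose and sugar carriers held no call. Of 16 members, 14 were tested and 0 were called with edgeR, 7 had an unadjusted p under 0.05, and DESeq2 called 2, both higher in AG; the median log2 fold change was 0.13. SLC2A3 (ENSMMUG00000046124), the high-affinity glucose carrier of neurons and embryos, had 796 and 844 CPM in GG and 1156 and 1646 CPM in AG. Its near-copy SLC2A14 had 211 and 254 CPM in GG and 358 and 517 CPM in AG, and reads may be divided uncertainly between these 2 genes. Both lay lower in both GG libraries, with log2 fold changes of -0.77 ± 0.25 for SLC2A3 and -0.91 ± 0.28 for SLC2A14 (edgeR adjusted p = 0.0979 for SLC2A3 and 0.0853 for SLC2A14), and both were called without AG replicate 1. SLC2A1, the widespread basal glucose carrier, had 6.93 and 19.9 CPM in GG and 1.42 and 9.96 CPM in AG, overlapping groups (log2 fold change 1.23 ± 0.98), and was called only without AG replicate 2.

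SLC5A10, a sodium-coupled sugar carrier best known from kidney, and SLC45A4 stood closest to the threshold, in opposite directions. SLC5A10 had 222 and 230 CPM in GG and 485 and 1330 CPM in AG. The GG libraries were nearly equal, and the AG libraries differed 2.74-fold from each other. The log2 fold change was -2.005 ± 0.49 (edgeR adjusted p = 0.0519), and it was called in 8 of the 11 alternatives. Of the lower members, SLC45A4 had 18 and 20 counts in GG and 0 in both AG libraries, at least 8.48-fold higher in GG. It was not called (edgeR adjusted p = 0.0519). SLC2A7 had 1 count in AG, a GG to AG ratio of 22.8 (95% interval 3.82 to 925), and was not called. Among enzymes that use hexose, lactate and pyruvate, 8 of 10 were tested, with 3 called higher in GG (LDHB, PDHA1, PDHB) and 1 higher in AG (LDHA). The share called was 50%, against 12.9% of all tested genes. TXNIP, which restrains glucose uptake, had 112 and 103 CPM in GG and 10.1 and 6.86 CPM in AG.

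Lactate and other monocarboxylate carriers were called higher in AG only. All 4 members were tested, with 0 calls on the GG side and 2 on the AG side, and all 4 log2 fold changes were negative. SLC16A6 (ENSMMUG00000011094), known from zebrafish as an exporter of ketone bodies, had 3.04 and 1.23 CPM in GG and 64.8 and 44.7 CPM in AG. These groups were far apart, with a log2 fold change of -4.69 ± 0.58 (edgeR adjusted p = 0.0151). SLC16A1 (ENSMMUG00000006171), the main lactate and pyruvate carrier of many tissues, had 203 and 161 CPM in GG and 480 and 347 CPM in AG. The log2 fold change was -1.18 ± 0.28 (adjusted p = 0.0482), and the adjusted p passed 0.05 under scaling by DESeq2 size factors (0.0501) or by upper quartiles (0.0539).

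The other two monocarboxylate carriers overlapped between groups. SLC16A3, the lactate exporter of glycolytic cells, had 0.712 and 3.75 CPM in GG and 3.21 and 4.83 CPM in AG. SLC5A8, a sodium-coupled monocarboxylate carrier, had 4.61 and 2.01 CPM in GG and 2.28 and 5.79 CPM in AG. The log2 fold change was -0.84 ± 0.88 for SLC16A3 and -0.29 ± 0.74 for SLC5A8. SLC16A1 needs a membrane chaperone, either basigin (BSG) or embigin (EMB). BSG had 500 and 480 CPM in GG and 396 and 722 CPM in AG and was not called, while EMB had 87 and 172 counts in GG and 0 and 1 in AG and was called higher in GG (adjusted p = 0.0206).

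Nucleoside carriers included the call that held in every fit. Of 4 tested, 1 was called, on the AG side (25%, against 6.58% of all tested genes). SLC28A3 (ENSMMUG00000008685), a concentrative carrier that takes up purine and pyrimidine nucleosides with sodium, had 1.04 and 0.750 CPM in GG and 181 and 97.7 CPM in AG. Both GG libraries lay near 1 CPM, and the level was 155-fold higher in AG (log2 fold change -7.28 ± 0.52, edgeR adjusted p = 0.0051). It was called in all 11 alternatives, including each of the 4 fits that left out a library. SLC28A3 carried 86.0% of the reads of its class, so the class summed to 9.498 and 11.7 CPM in GG and 186 and 106 CPM in AG, and without it to 8.45 and 11.0 CPM in GG and 4.99 and 8.43 CPM in AG.

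The equilibrative nucleoside carriers overlapped between groups. SLC29A2 had 6.60 and 3.21 CPM in GG and 4.06 and 6.30 CPM in AG, and the lysosomal SLC29A3 had 0.142 and 2.39 CPM in GG and 0.641 and 1.42 CPM in AG. SLC43A3, a nucleobase carrier, had 1.71 and 5.35 CPM in GG and 0.285 and 0.711 CPM in AG; both GG libraries were higher, but it was not called (log2 fold change 2.79 ± 0.92, edgeR adjusted p = 0.101), and DESeq2 called it. Of 13 genes that salvage nucleosides and bases, 10 were tested, and 1, HPRT1, was called (10%, against 12.9% of all tested genes). HPRT1 had 448 and 486 CPM in GG and 146 and 126 CPM in AG. PNP, which splits purine nucleosides, had 0.855 and 6.89 CPM in GG and 89.8 and 27.4 CPM in AG, and was not called with edgeR (adjusted p = 0.0701) but was with DESeq2.

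**Figure D3:**
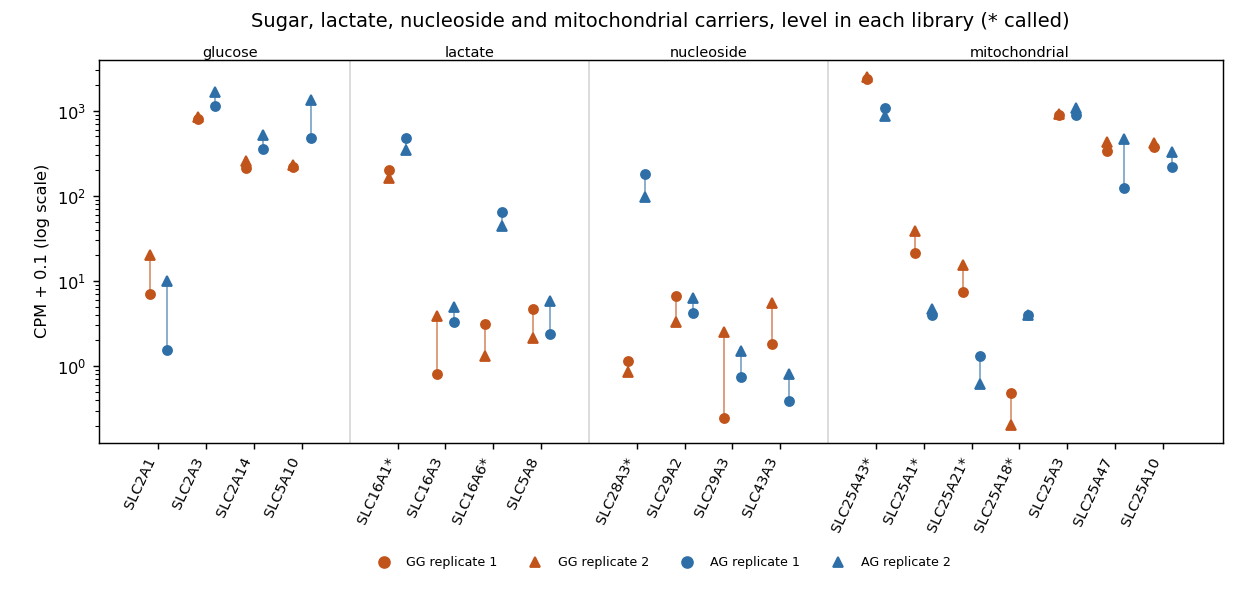
Level of sugar, lactate, nucleoside and mitochondrial carriers in each library, as CPM + 0.1 on a log axis; GG libraries are drawn left of AG libraries, circles are replicate 1, triangles replicate 2, and an asterisk marks called members. SLC28A3 and SLC16A6 are far lower in both GG libraries, while SLC25A43, SLC25A1 and SLC25A21 are higher.

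Mitochondrial carriers were called at about the share of all tested genes. Of 36 members, 34 were tested, and 30 had no call (11.8% called, against 12.9% of all tested genes). The class and its sums include SLC25A17, a family member of peroxisomes. It had 59.0 and 83.2 CPM in GG and 152.5 and 99.5 CPM in AG and was not called. Higher in GG were 3 (8.82%, against 6.34% of all tested genes) and higher in AG 1 (2.94%, against 6.58%). The median log2 fold change was -0.12, with 18 of the 34 below 0. SLC25A43 (ENSMMUG00000020282), a carrier whose substrate is not established, held 43.5% of the reads of the class and 17.9% of those of all members. It had 2373 and 2487 CPM in GG and 1082 and 877 CPM in AG, with replicates close in both groups. The log2 fold change was 1.31 ± 0.22 (edgeR adjusted p = 0.0260).

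SLC25A1 (ENSMMUG00000005431), which exports citrate to the cytosol for fatty acid and sterol synthesis, had 21.5 and 38.6 CPM in GG and 3.85 and 4.57 CPM in AG (log2 fold change 2.83 ± 0.46, edgeR adjusted p = 0.0250). SLC25A21, a carrier of oxoadipate in lysine and tryptophan breakdown, had 7.41 and 15.3 CPM in GG and 1.21 and 0.508 CPM in AG (log2 fold change 3.74 ± 0.74, adjusted p = 0.0343). SLC25A18, a glutamate carrier, went the other way at low levels, with 0.380 and 0.102 CPM in GG and 3.92 and 3.86 CPM in AG (adjusted p = 0.0418). None of these 4 carriers, chosen by their calls, overlapped between groups, which also held for 64.1% of all tested genes.

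Most other mitochondrial carriers, including those of oxidative phosphorylation, overlapped or fell short of a call. SLC25A3, which brings phosphate to ATP synthase, had 888 and 931 CPM in GG and 884 and 1089 CPM in AG, with a log2 fold change of -0.12 ± 0.22. SLC25A4, an ADP/ATP exchanger, had 37.4 and 24.0 CPM in GG and 59.6 and 48.9 CPM in AG. SLC25A10, a dicarboxylate carrier, had 372 and 415 CPM in GG and 219 and 326 CPM in AG. SLC25A47, known from liver, had 334 and 428 CPM in GG but 123 and 462 CPM in AG, so its AG libraries spanned the GG range; SLC25A10 and SLC25A47 were called only without AG replicate 2. SLC25A20, which brings acylcarnitines in for fatty acid oxidation, had 11.6 and 16.03 CPM in GG and 0.427 and 4.77 CPM in AG, and was called with DESeq2 and without AG replicate 2 only. SLC25A12 and SLC25A13, the aspartate and glutamate exchangers, had log2 fold changes of 0.38 ± 0.31 (SLC25A12) and 2.17 ± 0.79 (SLC25A13), neither called with edgeR; DESeq2 called SLC25A13 (adjusted p = 0.0432).

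The calls among metal carriers were zinc carriers. Of 26 members, all tested, 1 was called on the GG side and 2 on the AG side (11.5% called, against 12.9% of all tested genes). SLC39A4 (ENSMMUG00000003154), a zinc importer of the cell surface, had 516 and 391 CPM in GG and 29.0 and 98.99 CPM in AG (log2 fold change 2.82 ± 0.60, edgeR adjusted p = 0.0402). SLC39A14, a zinc, iron and manganese importer, had 4.32 and 1.77 CPM in GG and 33.1 and 24.7 CPM in AG (log2 fold change -3.25 ± 0.57, adjusted p = 0.0280). SLC30A7, which loads zinc into the Golgi, had 50.3 and 50.2 CPM in GG and 151 and 116 CPM in AG (log2 fold change -1.41 ± 0.28, adjusted p = 0.0362). The 2 zinc importers thus differed in opposite directions. SLC40A1, the iron exporter, had 15.2 and 5.59 CPM in GG and 70.7 and 30.7 CPM in AG and was not called (adjusted p = 0.0739; called in 4 alternatives).

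Among ion and pH carriers, 29 of 37 were tested, with 1 call on the GG side and 3 on the AG side. The share called was 13.8%, against 12.9% of all tested genes. SLC12A2, which brings sodium, potassium and chloride into cells, had 1.38 and 1.91 CPM in GG and 13.7 and 8.99 CPM in AG (log2 fold change -2.78 ± 0.55, edgeR adjusted p = 0.0342). SLC12A7, which lets potassium and chloride out, had 43 and 59 counts in GG and 0 in both AG libraries, at least 22.8-fold higher in GG. These were the 2 calls among 7 tested SLC12 members (28.6%, against 12.9% of all tested genes), of which 6 had log2 fold changes above 0. SLC4A7, a sodium bicarbonate importer, had 5.79 and 5.80 CPM in GG and 26.2 and 33.6 CPM in AG (log2 fold change -2.37 ± 0.37, adjusted p = 0.0234). SLC26A2, a sulfate carrier, had 12.1 and 11.2 CPM in GG and 42.4 and 28.6 CPM in AG, and its call ended without AG replicate 1 (adjusted p = 0.0536).

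Nucleotide sugar and Golgi carriers gave 4 calls on the GG side and 1 on the AG side among 24 tested of 25 (16.7% on the GG side, against 6.34% of all tested genes). This class was set by family (SLC35 and SLC33), so a member need not carry nucleotide sugars or lie in the Golgi. Of those called, SLC35F6, SLC35G2 and SLC35F2 were placed here by family only. SLC35A2 and SLC35A3 bring UDP-galactose and UDP-N-acetylglucosamine into the Golgi for glycan synthesis. SLC35A3 had 42.6 and 47.7 CPM in GG and 8.05 and 14.2 CPM in AG, and SLC35A2 had 6.41 and 7.60 CPM in GG and 1.14 and 0.813 CPM in AG. SLC35F6 had 30.6 and 30.6 CPM in GG and 5.91 and 7.52 CPM in AG, and SLC35G2 had 8.12 and 9.85 CPM in GG and 1.14 and 1.17 CPM in AG. The log2 fold changes of these 4 lay between 2.02 and 2.95 (edgeR adjusted p = 0.0262 to 0.0374). SLC35F2 was the exception, with 19.2 and 22.9 CPM in GG and 227 and 85.9 CPM in AG (log2 fold change -2.89 ± 0.52, adjusted p = 0.0294).

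Of 5 choline carriers of the SLC44 family tested, 2 were called, both higher in GG (40%, against 6.34% of all tested genes). SLC44A4 and SLC44A5 overlapped between groups, with log2 fold changes of 0.02 ± 0.77 for SLC44A4 and 0.04 ± 0.70 for SLC44A5. SLC44A2 had 16.4 and 20.8 CPM in GG and 0.997 and 0.559 CPM in AG (log2 fold change 4.59 ± 0.56, edgeR adjusted p = 0.0143). SLC44A3 had 1 count in AG, a GG to AG ratio of 102 (95% interval 18.1 to 4071). SLC44A1 had 22.4 and 18.8 CPM in GG and 0.356 and 2.79 CPM in AG; it was not called (adjusted p = 0.0542) but passed in 6 alternatives. In the same class SLC10A4, an orphan relative of the bile acid carriers, had 0 and 0.511 CPM in GG and 10.4 and 19.9 CPM in AG (log2 fold change -5.77 ± 1.27, adjusted p = 0.0427).

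The remaining classes gave few calls. Among 9 organic ion carriers tested, 3 were called, all higher in AG (33.3%, against 6.58% of all tested genes). These were SLC47A1, a proton-coupled drug exporter (2.33 and 2.18 CPM in GG, 23.4 and 10.9 CPM in AG), SLC17A7, a vesicular glutamate carrier (0.807 and 0.784 CPM in GG, 25.9 and 6.30 CPM in AG), and SLC17A3. SLC17A3 had 0 counts in GG and 47 in AG, at least 23.4-fold lower in GG, and its call ended without AG replicate 1 (edgeR adjusted p = 0.0842). SLC20A1, a sodium phosphate importer, had 20.8 and 19.5 CPM in GG and 75.2 and 52.2 CPM in AG (log2 fold change -1.66 ± 0.34, adjusted p = 0.0366). Of 8 vitamin carriers tested, 0 were called with edgeR, 1 had an unadjusted p under 0.05 and DESeq2 called 1. SLC23A2, which takes up vitamin C, had 56.0 and 51.2 CPM in GG and 52.4 and 54.5 CPM in AG, with a log2 fold change of 0.00 ± 0.28. In the class of osmolyte, neurotransmitter and other carriers, SLC6A3, a dopamine carrier, had 23 counts in each GG library and 0 in AG, at least 10.3-fold higher in GG. Its call ended without either AG library (adjusted p = 0.0966 without AG replicate 1 and 0.0854 without AG replicate 2). SLC15A5, of the peptide carrier family, had 0 and 0.136 CPM in GG and 6.41 and 5.38 CPM in AG and was called (adjusted p = 0.0294).

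**Figure D4:**
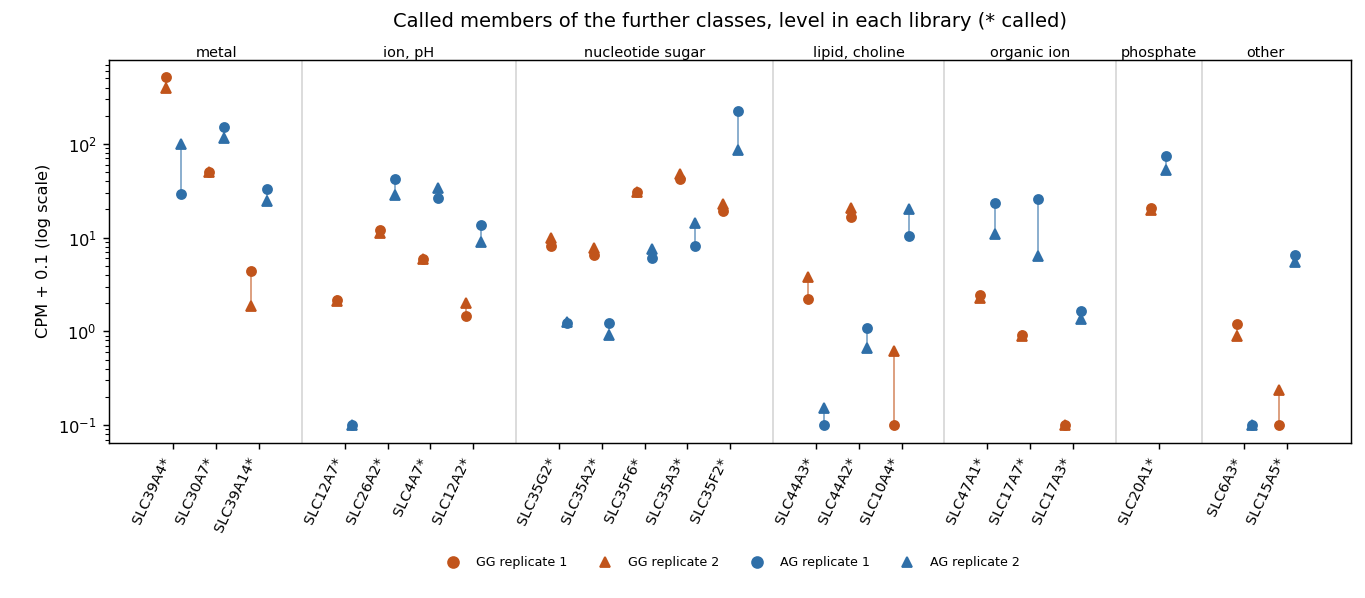
Level of the 21 called members of the further classes in each library, as CPM + 0.1 on a log axis; GG libraries are drawn left of AG libraries, circles are replicate 1 and triangles replicate 2. GG lies above AG in 9 and below in 12. The groups are separate in all 21, which were chosen by their calls. Groups did not overlap in 64.1% of all tested genes.

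Replicates lay farther apart in AG, whose libraries were also the shallower ones. Among the 122 members with a mean of at least 5 CPM, the higher replicate exceeded the lower by a median of 1.27-fold in GG and 1.61-fold in AG, and by over 4-fold in 3 members in GG and 15 in AG. SLC34A2, a phosphate carrier of epithelia, had 10.1 and 8.11 CPM in GG and 31.3 and 0.356 CPM in AG. SLC18B1, a vesicular polyamine carrier, had 216 and 368 CPM in GG and 3.56 and 106 CPM in AG. Neither was called with both AG libraries, and each was called when 1 AG library was left out, SLC18B1 without AG replicate 2 and SLC34A2 without either. In GG, the 3 members were SLC3A1, SLC10A4 and SLC38A1, all near 0 there.

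**Figure D5:**
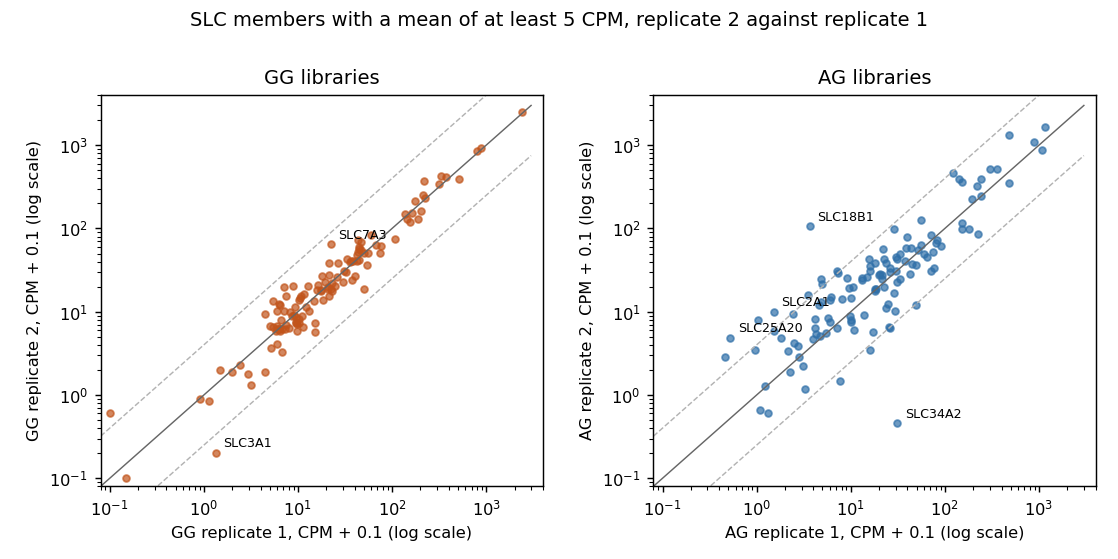
Level of the 122 members with a mean of at least 5 CPM in replicate 2 against replicate 1, in GG at left and AG at right, as CPM + 0.1 on log axes; the solid line marks equality and the dashed lines a 4-fold difference. Points lie closer to equality in GG (median 1.27-fold apart) than in AG (median 1.61-fold), where SLC34A2 and SLC18B1 are farthest off.

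Position in the genome was set beside these changes. Of 9 members on the X chromosome by the RefSeq gene table, 7 were tested. Called were 3, all higher in GG (42.9%, against 6.34% of all tested genes): SLC25A43, SLC7A3 and SLC35A2. Over all 390 tested X-linked genes, 71 were called. Of these, 59 (15.1% of those tested) lay on the GG side, against 6.34% of all tested genes. On the AG side were 12 (3.08%, against 6.58%). The number of X chromosomes in each library is not given by the labels. Among 11 pairs of tested members with at most 2 protein-coding genes between them in gene order, 6 pairs (54.5%) had log2 fold changes of the same sign, against 53.9% of 9340 such pairs over all tested genes. The adjacent genes SLC36A1 and SLC36A2 were both called higher in GG. SLC12A7, also called higher in GG, lies beside SLC6A19, a neutral amino acid carrier of gut and kidney that had 6.32 and 9.31 CPM in GG and 0.0712 and 2.13 CPM in AG and was called only without AG replicate 2.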

How the data were processed

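RNA of 2 GG and 2 AG rhesus macaque morula libraries was analysed from 1 table of the whole series. The deposited values are estimated counts per Ensembl gene, made by the authors from the reads and not scaled to library size. The submitters' processing notes name Trim Galore, STAR 2.6.0c, Salmon 0.12.0 and the build rheMac8 without roles; no annotation release or strand setting is given in the sources used here. Symbols were joined by Ensembl identifier to 14654 of 21314 genes, and each SLC symbol had 1 identifier. No identifier was matched to SLC7A5 or SLC29A1, which are not analysed here. The members, the 13 substrate classes and the other lists were chosen with earlier results of these data known.

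Counts were rounded and tested across all genes with the edgeR 4.0.16 quasi-likelihood F test in R 4.3.3. Low genes were removed with filterByExpr (groups given, count 10, total 15), libraries were scaled by TMM, and p-values were adjusted by Benjamini-Hochberg. Calls have an adjusted p under 0.05. Log2 fold changes put GG over AG, with the standard error (SE) implied by the F statistic. CPM divide counts by the TMM-adjusted total of tested genes. The script was tested on simulated counts. For a group without counts, the fold uses 3 counts over that group as a floor, giving a lower bound. With 1 to 3 counts, the ratio of counts over totals carries an exact 95% interval for counting error only. Alternatives covered scaling, the low-count filter, thinning, DESeq2 1.42.0, each library left out and the replicate block.

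Genes were named by rule. In the 5 main classes it takes up to 5 called members per direction with a mean of at least 5 CPM and the largest change, and the 3 with most reads. It takes all tested lactate and nucleoside carriers, up to 2 called members per direction in each of the 8 further classes, and 10 well-known carriers. Other members named in the text were picked with their values in view. Gene order was taken from the RefSeq table of assembly T2T-MMU8v2.0, which is not the build of the counts.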

Additional observations from a re-analysis of the deposited data

How the results depend on the processing

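The 37 member calls (15 higher in GG, 22 higher in AG) became 69 with DESeq2's Wald test (30 higher in GG, 39 higher in AG), 55 with no filter on low counts (21 and 34) and 25 with a minimum mean of 10 CPM (8 and 17). Calls over all genes, 1709 at first, were 3333 with DESeq2 and 2609 with no filter. Over the fits that each left out 1 library, member calls ranged from 1 to 82 (0 to 44 higher in GG, 1 to 38 higher in AG) and calls over all genes from 84 to 3786. None of the 37 calls changed sign in the alternatives, of 11, that tested it. The cause of these shifts was not tested.

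By class, DESeq2 called 16 amino acid, 2 sugar, 2 nucleoside, 10 mitochondrial, 10 metal, 9 ion and pH and 1 vitamin carriers. With no filter the counts were 14 amino acid, 1 sugar, 7 metal, 8 ion and pH and 1 vitamin. With a minimum mean of 10 CPM they were 1 sugar, 2 mitochondrial, 3 nucleotide sugar, 1 lipid, 0 organic ion and 0 other carriers. Thinning to the smallest library gave 1 sugar, 1 vitamin and 1 other carrier. DESeq2 size factors gave 1 sugar and 1 lactate carrier, and upper-quartile factors 1 lactate carrier. Over the left-out libraries the ranges were 0 to 16 for amino acid, 0 to 3 for sugar, 0 to 2 for lactate, 0 to 13 for mitochondrial and 0 to 13 for metal carriers. They were 0 to 9 for ion and pH, 0 to 9 for nucleotide sugar, 0 to 4 for lipid, 0 to 1 for vitamin, 0 to 5 for organic ion, 0 to 2 for phosphate and 0 to 4 for other carriers.

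The labels do not tie equal replicate numbers together, and same-numbered libraries deviated with a correlation of 0.0986. With the replicate block, 39 members were called (17.7%, against 12.8% of all tested genes), with 1 sugar and 1 other carrier. Of the 39, 33 were among the 37. Among those lost were SLC35A2 (edgeR adjusted p = 0.0516), SLC26A2 (0.0514), SLC17A3 (0.0536) and SLC6A3 (0.0802). Summing identifiers of 1 symbol was not run, since each symbol had 1. With 14129529 counts in the shallowest library, counting intervals near the 15-count minimum are wide: SLC12A1, with 14 counts in GG and 1 in AG, had a ratio of 9.37 (95% interval 1.43 to 396).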
